A study of Rattus norvegicus with 6 samples.

Results

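Centrosome and primary cilium genes were followed in neonatal rat ventricular myocytes (NRVMs) exposed to human serum, either of nonfailing (NF) pediatric controls or of pediatric patients with dilated cardiomyopathy (DCM). The genes were chosen by symbol alone, from the name families of centrosomal proteins, intraflagellar transport, the BBSome, the transition zone, hedgehog signaling, tubulin modification and the axoneme. Such a symbol is carried by 28 of 3221 rows of the deposited expression values, each once. The NRVMs came from Sprague Dawley rats at postnatal day 2, and both groups received human serum, so a response to human serum as such is shared by both. The NF serum group has 3 libraries and the DCM serum group has 3, 1 of each from NRVM preparations A, B and C, and values are given in that order throughout. The labels give 1% serum for 72 hours, whereas the study's methods state a higher serum percentage and a range of times. Each library pools RNA of 2 plates, and the NF libraries of preparations B and C carry the same serum label, so 2 of the 3 NF libraries rest on the same serum. Values are FPKM, that is fragments assigned to a gene, corrected for transcript length and for library size, so that levels of different genes can be compared. Read counts were not used here, so the counts behind a value are unknown.

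The centrosome is a pair of centrioles within a protein matrix that nucleates microtubules. In a resting cell the older centriole docks at the membrane as a basal body and grows a primary cilium, a single antenna built by intraflagellar transport and gated by the transition zone, in which hedgehog signals are received. In cardiac muscle, microtubule nucleation shifts around birth from the centrosome to the nuclear envelope while cardiomyocytes leave the cell cycle, and cilia are better known in heart development and in cardiac fibroblasts than in mature muscle cells.

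The table itself is a selection that limits every count given here. By its own q column it keeps only genes with q under 0.10 in the authors' test of DCM against NF serum, after a variance filter, and all 28 genes, like all 3221, have 1 direction in the 3 preparations. The gene numbers and the balance of higher and lower genes that the study states for this test are not those of the table, so how its rows were chosen is known only as far as its columns show. A gene is called here where limma, fitted to log2(FPKM + 1) over all 3221 genes with the preparation as a block, gave a Benjamini-Hochberg adjusted p under 0.10. This fit uses the ratios that the selection used, so a call is a description and no further support. The table as a whole was lower with DCM serum: 92.2% of its genes had a mean log2 ratio of DCM to NF FPKM under 0, and the median was -0.17 in preparation A, -0.40 in B and -0.25 in C. Of 15 cardiomyocyte markers only Mybpc3 and Myl2 are among the rows, with Myl2, the ventricular myosin light chain, between 6628 and 11358 FPKM. Mybpc3 was called lower (log2 ratio -0.22 ± 0.18) and Myl2 was not called (-0.24 ± 0.34). Of 10 fibroblast markers Postn and Lum are present, both called lower, of 7 smooth muscle markers Tagln, called lower (-0.38 ± 0.27), and of 6 macrophage markers none. In the same fit 61.6% of the table was called lower, and relative to the table medians Mybpc3, Postn, Lum and Tagln were not called. Of 8 endothelial markers Pecam1 is present and was called higher (0.57 ± 0.05, paired limma adjusted p = 0.0296), also relative to the table medians. The identity of the cells can thus be checked against few of their defining genes. Summed FPKM of the 2 fibroblast markers was 22.5, 13.8 and 64.0 with NF serum and 21.5, 10.3 and 37.97 with DCM serum, so the preparations differ in this sum, and the part of these markers in the results was not tested. In such cultures, fewer cells of a type and less RNA per cell cannot be told apart.

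Most of the centrosome and cilium genes had lower FPKM with DCM serum, by about as much as the rest of the table. Of the 28 genes, 25 were lower and 3 higher. With each preparation centred on its table median, 12 of the 25 lay above 0 on the log2(FPKM + 1) scale. That scale understates changes of low genes. With plain FPKM ratios centred in the same way, Bbs7, Ttc21b and Ptch1 lie under 0, so the number is smaller there. The median log2 ratio of the 28 was -0.29, beside -0.29 for all 3221 genes. In the paired limma fit 15 of 28 genes fell (53.6%), against 61.6% of the table, 2 rose (7.14%), against 6.24%, and 11 were not called. In either direction 17 of 28 were called, against 67.8% of the table. In 6 of the 28 all 3 DCM values lay under all 3 NF values, against 25.7% of the table, and in none did all 3 lie above, against 2.73%. These shares are near or under those of the table, so the counts set the 28 genes apart in no way. Relative to the preparation medians, limma called 1 gene lower (Smo, against 10.7% of the table) and 3 higher (Spata13 and Cep63 among them, against 7.82%).

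**Figure D1:**
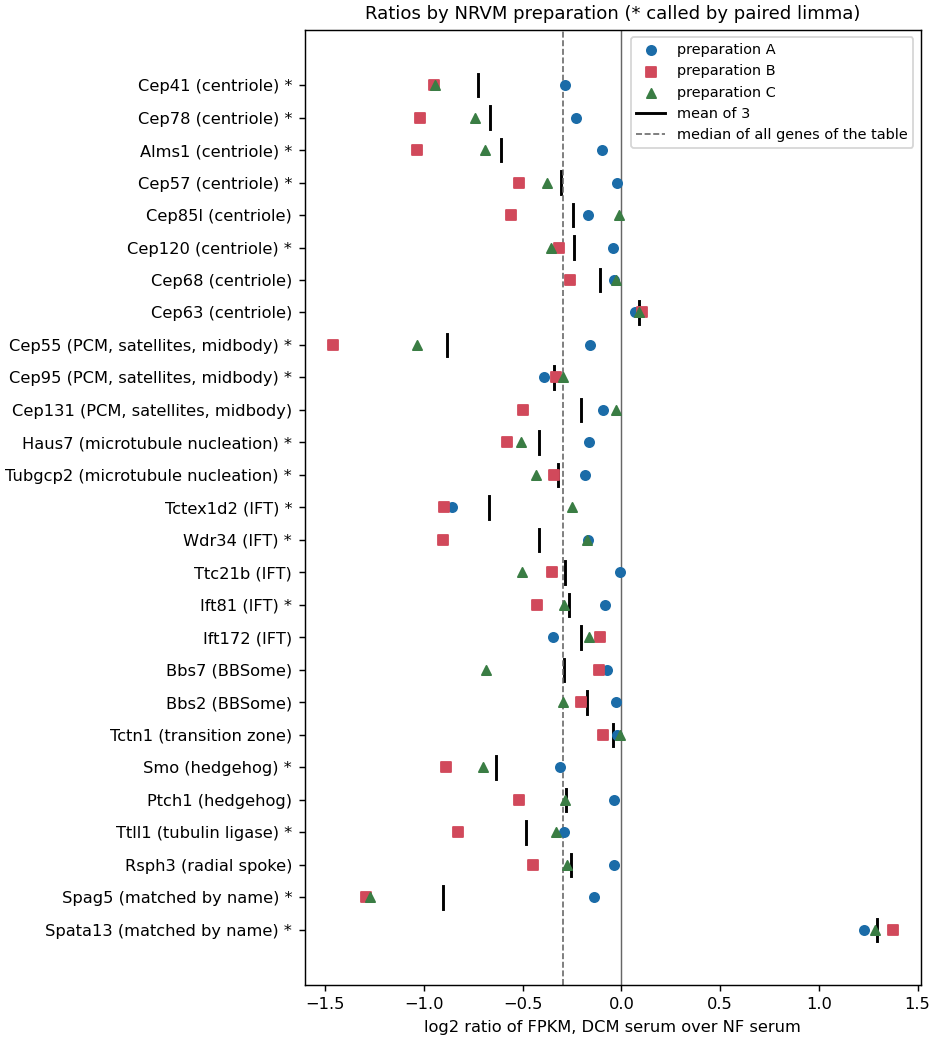
Log2 ratio of FPKM with DCM over NF serum (horizontal axis) for 27 of the 28 genes (rows, with their role), one point for each NRVM preparation and a black bar for the mean of 3. The dashed line is the table median of -0.29 and an asterisk marks genes called by the paired limma fit; Spata13 lies at 1.30, far right of all others, and preparation A (circles) is nearest to 0 for 18 of the 25 lower genes.

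The 28 genes were low in NRVMs. Their mean FPKM over the 6 libraries ranged from 1.26 for Spag5 to 14.5 for Cep68 with a median of 2.35, against a table median of 7.69, and 23 of 28 lay under 5 FPKM. Differences among the NF libraries were often larger than the difference between sera. The log2 range of the 3 NF values exceeded the size of the mean log2 ratio in 22 of 28 genes (78.6%), against 66.0% of the table. With the preparations not paired, limma called none of the 28 (adjusted p from 0.294 to 0.899), against 0.124% of the table, and 3 had an unadjusted p under 0.05 (Spata13, Cep78 and Cep41), against 16.5%.

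The results rest on preparations B and C. In preparation A the 28 genes had a median log2 ratio of -0.10, against -0.47 in B and -0.30 in C. Among the 25 lower genes the decrease was largest in B for 18, in C for 5 and in A for 2, and 12 of the 25 lay within 0.1 of 0 in A, against 1 in B and 4 in C. Without preparation A, limma still called 13 of 28 lower, against 36.1% of the table, and 2 higher, against 4.35%. Cep95, Tctex1d2 and Wdr34 lost their call there and Ttc21b gained one. Without preparation B it called none lower, against 14.3% of the table (8 of the 28 were lower at an unadjusted p under 0.05), and without C only Tctex1d2, against 16.2%. Spata13 was the only gene of the 28 called whichever preparation was left out, also as the only higher gene without B (4.07% of the table) and without C (3.01%). At an adjusted p under 0.05 limma called 6 of 28 lower, against 22.2%, and Spata13 higher, against 4.63%.

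Genes assigned to centriole assembly and appendages formed the largest group, with 9 genes, of which 5 fell (55.6%, against 61.6% of the table). Cep41, a basal body protein needed for tubulin glutamylation in cilia, was at 1.62, 2.60 and 2.89 FPKM with NF serum and at 1.32, 1.35 and 1.504 FPKM with DCM serum. The groups did not overlap, since the 3 DCM libraries were alike and the NF libraries spread upward from A. The mean fell from 2.37 ± 0.669 to 1.39 ± 0.0970 FPKM (SD, n = 3 each), and the log2 ratio was -0.73 ± 0.38 (paired limma adjusted p = 0.0451). Cep78, a protein of mature centrioles that is mutated in a human retinal degeneration with hearing loss, was at 1.56, 2.22 and 2.17 FPKM with NF serum and at 1.33, 1.09 and 1.30 FPKM with DCM serum. Again all DCM values lay below all NF values, with a log2 ratio of -0.66 ± 0.40 (paired limma adjusted p = 0.0507).

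Alms1, a large basal body protein whose loss causes human Alström syndrome, in which dilated cardiomyopathy is common, was at 1.17, 1.58 and 1.83 FPKM with NF serum and at 1.09, 0.771 and 1.14 FPKM with DCM serum. Its groups did not overlap, but preparation A differed little, with a log2 ratio of -0.10 against -1.04 in B and -0.69 in C. The mean ratio was -0.61 ± 0.47 (paired limma adjusted p = 0.0675). Cep57, which organizes the matrix around centrioles, and Cep120, which is required for centriole elongation, also fell, with log2 ratios of -0.30 ± 0.26 and -0.24 ± 0.17 and values near 0 in preparation A (-0.02 and -0.04). The call of Cep120 was lost with pseudocounts of 0.1, 0.01 and none (adjusted p from 0.101 to 0.103, against 0.0925). Cep85l and the centriole linker protein Cep68 were not called, at -0.25 ± 0.28 and -0.11 ± 0.13. Relative to the table medians, Cep120, Cep85l and Cep68 lay slightly above 0.

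Cep63, which recruits the centriole duplication machinery, was at 8.16, 8.43 and 7.75 FPKM with NF serum and at 8.55, 9.06 and 8.25 FPKM with DCM serum. The groups overlapped. DCM was higher in each preparation, but every gene of the selected table keeps its direction across the preparations. Its log2 ratio of 0.09 ± 0.02 was not called by paired limma (adjusted p = 0.303), and was called higher only relative to the table medians (adjusted p = 0.0319).

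Among proteins of the surrounding matrix, satellites and midbody, Cep95 fell, Cep131 was not called and Cep55 is given with Spag5. Cep95, a little-studied centrosomal protein, was at 3.40, 4.07 and 3.98 FPKM with NF serum and at 2.59, 3.23 and 3.24 FPKM with DCM serum. All DCM values lay below all NF values, and the 3 ratios were close together, with a log2 ratio of -0.34 ± 0.05 (paired limma adjusted p = 0.0461). Unlike most of the 28 genes, Cep95 changed in preparation A (-0.39) at least as much as in B and C (-0.33 and -0.30). Cep131, a protein of the centriolar satellites, was at 2.84, 3.73 and 3.02 FPKM with NF serum and at 2.66, 2.64 and 2.97 FPKM with DCM serum. Only preparation B stood apart there, and the gene was not called (log2 ratio -0.21 ± 0.26, paired limma adjusted p = 0.189).

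Both microtubule nucleation genes fell, in a table of which 61.6% was called lower. Tubgcp2, a core subunit of the gamma-tubulin ring complex, was at 9.78, 9.13 and 11.0 FPKM with NF serum and at 8.61, 7.197 and 8.19 FPKM with DCM serum. The groups did not overlap, and the mean fell from 9.99 ± 0.974 to 8.00 ± 0.724 FPKM (SD, n = 3 each), and the log2 ratio was -0.32 ± 0.12 (paired limma adjusted p = 0.0495). Haus7, a subunit of the augmin complex that branches spindle microtubules, was at 5.57, 3.48 and 6.01 FPKM with NF serum and at 4.97, 2.33 and 4.22 FPKM with DCM serum. Its groups overlapped because preparation B was low with both sera, and within preparations the log2 ratio was -0.42 ± 0.22 (paired limma adjusted p = 0.0499). Neither gene was called relative to the table medians.

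**Figure D2:**
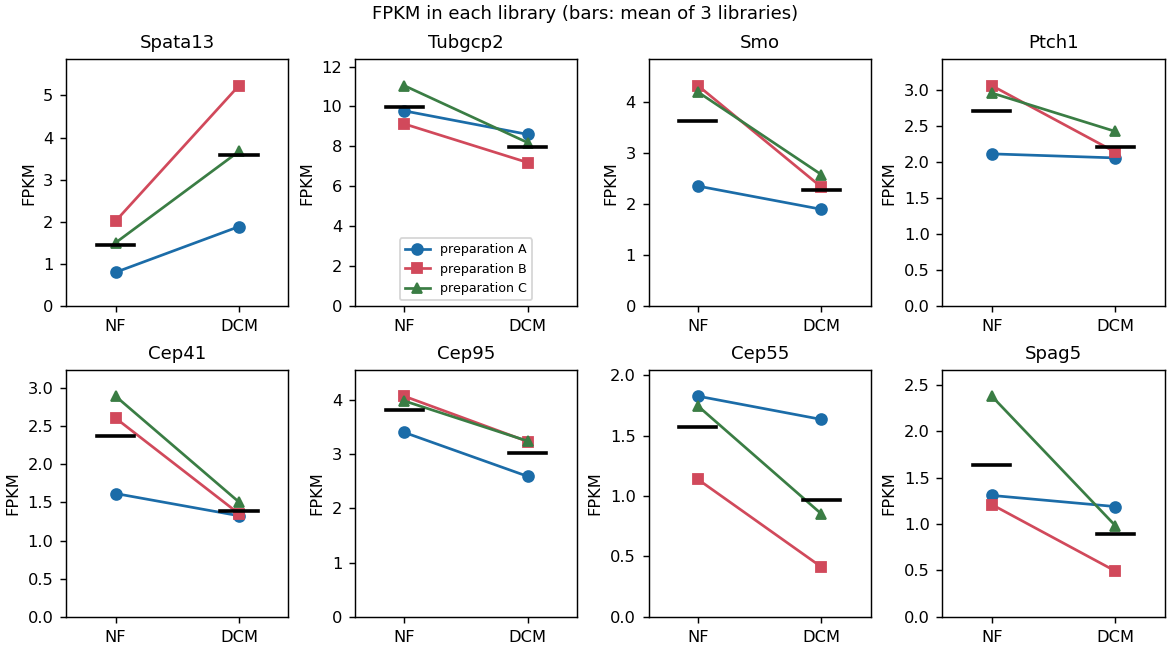
FPKM (vertical axis, from 0) of 8 of the genes with NF and DCM serum, lines joining the 2 libraries of a preparation and black bars for the mean of 3 libraries. Spata13 goes up in each preparation, while Cep55 and Spag5 drop steeply in preparations B and C and little in A (Cep55 from 1.83 to 1.63 FPKM).

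Intraflagellar transport carries cargo along the cilium, outward with the IFT-B complex and kinesin and back with IFT-A and dynein 2. Of 5 such genes 3 fell, against 61.6% of the table, and 2 were not called. Tctex1d2, a light chain of dynein 2, was at 1.20, 2.00 and 1.74 FPKM with NF serum and at 0.664, 1.08 and 1.47 FPKM with DCM serum. It was unlike most of the genes in that preparation A changed as much as B (log2 ratios -0.86 and -0.90) and C least (-0.25). The mean ratio was -0.67 ± 0.36 (paired limma adjusted p = 0.0478). Wdr34, an intermediate chain of the same motor, was at 2.57, 2.34 and 2.85 FPKM with NF serum and at 2.28, 1.252 and 2.53 FPKM with DCM serum. Preparation B alone gave most of its decrease, so that the ratio of -0.42 ± 0.42 has an SD as large as its mean (paired limma adjusted p = 0.0945). The call was lost with smaller pseudocounts and with none (adjusted p from 0.105 to 0.109).

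Ift81, a tubulin-binding subunit of IFT-B, was at 2.87, 4.62 and 3.70 FPKM with NF serum and at 2.71, 3.44 and 3.02 FPKM with DCM serum. The groups overlapped, and the gene fell within preparations by a log2 ratio of -0.27 ± 0.17 (paired limma adjusted p = 0.0879). Ttc21b, an IFT-A subunit also known as IFT139, and Ift172, an IFT-B subunit, were not called, at -0.29 ± 0.25 and -0.21 ± 0.12. Relative to the table medians no intraflagellar transport gene was called. Ift81, Ttc21b and Ift172 then lay slightly above 0 on the log2(FPKM + 1) scale.

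The Ift81 promoter is shown because, of 25 genes of the set with a promoter in the RefSeq table (GRCr8), it alone holds GTTGCCA. These letters are a form of the half-site of the X-box, the motif of the RFX factors that control ciliary genes. Other forms of the half-site were not searched, and other promoters of the set may hold them. That of Tctn1 holds GTTGCC and then GGCAAC with 1 base between them, which the search did not count. Ift81 is thus not the only promoter of the set with such letters. The letters GTTGCCA were searched on both strands of 300 bases, from 250 before to 50 after the start site, with no overlap between the motifs searched here in this promoter. They occur in 4.45% of 27457 promoters and in 4.0% of the 25. The Ift81 window is chr12:39618372-39618671 on the plus strand, and capitals mark the 2 matches, which begin 12 and 4 bases before the start site. They lie on opposite strands with 1 base between them, TGGCAAC first and GTTGCCA second. This order is the reverse of that in Tctn1, where GTTGCC comes first. Whether either arrangement works as an X-box was not tested.
Ift81: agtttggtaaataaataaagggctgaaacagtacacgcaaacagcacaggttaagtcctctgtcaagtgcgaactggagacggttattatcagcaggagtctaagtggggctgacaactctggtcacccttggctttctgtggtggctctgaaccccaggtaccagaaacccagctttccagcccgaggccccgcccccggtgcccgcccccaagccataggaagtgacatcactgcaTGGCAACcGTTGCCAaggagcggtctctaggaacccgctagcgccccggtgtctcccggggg

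Both BBSome genes were lower without being called. The BBSome is the coat that carries membrane receptors in and out of cilia, and human mutations in its subunits cause Bardet-Biedl syndrome. Bbs7 was at 2.42, 2.22 and 3.34 FPKM with NF serum and at 2.29, 2.05 and 2.08 FPKM with DCM serum. Here preparation C, not B, gave the difference, with log2 ratios of -0.07, -0.11 and -0.69 in A, B and C (paired limma adjusted p = 0.146). Bbs2 was at 1.17, 1.56 and 2.00 FPKM with NF serum and at 1.15, 1.35 and 1.63 FPKM with DCM serum, a log2 ratio of -0.18 ± 0.14 (paired limma adjusted p = 0.217). Tctn1, a transition zone protein of the hedgehog-receiving cilium, had the smallest difference of the 28 genes. It was at 1.65, 1.57 and 2.44 FPKM with NF serum and at 1.63, 1.47 and 2.43 FPKM with DCM serum, a log2 ratio of -0.04 ± 0.05 (paired limma adjusted p = 0.725).

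Ttll1, the catalytic subunit of a tubulin polyglutamylase, was at 2.48, 2.08 and 2.80 FPKM with NF serum and at 2.03, 1.17 and 2.23 FPKM with DCM serum. The groups overlapped, and the gene fell by a log2 ratio of -0.48 ± 0.30 (paired limma adjusted p = 0.0541). Rsph3, a radial spoke protein of motile cilia that is also expressed outside them, was the only axonemal gene of the set. It was at 1.77, 2.54 and 2.69 FPKM with NF serum and at 1.73, 1.86 and 2.22 FPKM with DCM serum, and was not called (log2 ratio -0.25 ± 0.20, paired limma adjusted p = 0.119).

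Of the 2 hedgehog genes, Smo fell and Ptch1 was not called. Ptch1 is the hedgehog receptor and holds Smo inactive until ligand binds, after which Smo enters the cilium and activates the Gli transcription factors. Smo was at 2.36, 4.33 and 4.204 FPKM with NF serum and at 1.90, 2.34 and 2.58 FPKM with DCM serum. The NF library of preparation A was as low as the DCM libraries of B and C, so the groups overlapped. Within each preparation DCM was lower, but every gene of the selected table keeps its direction across the preparations. The mean fell from 3.63 ± 1.10 to 2.28 ± 0.344 FPKM (SD, n = 3 each), and the log2 ratio was -0.63 ± 0.30 (paired limma adjusted p = 0.0417). Smo was the 1 gene of the 28 also called lower relative to the table medians (adjusted p = 0.0957), and without preparation B or C it was not called in the uncentred fit (adjusted p = 0.105 and 0.123).

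Ptch1, which is also a target of the Gli factors, was at 2.11, 3.06 and 2.96 FPKM with NF serum and at 2.06, 2.14 and 2.42 FPKM with DCM serum. Preparation A hardly differed, and the log2 ratio was -0.28 ± 0.24 (paired limma adjusted p = 0.106). Relative to the table medians Ptch1 lay near 0. Its promoter is shown because of the 25 it alone holds the Gli motif, GACCACCCA on either strand, which occurs in 0.379% of all 27457 promoters. The window is chr17:1555321-1555620 (GRCr8, plus strand, RefSeq), and capitals mark the match, on the opposite strand and beginning 172 bases before the start site.
Ptch1: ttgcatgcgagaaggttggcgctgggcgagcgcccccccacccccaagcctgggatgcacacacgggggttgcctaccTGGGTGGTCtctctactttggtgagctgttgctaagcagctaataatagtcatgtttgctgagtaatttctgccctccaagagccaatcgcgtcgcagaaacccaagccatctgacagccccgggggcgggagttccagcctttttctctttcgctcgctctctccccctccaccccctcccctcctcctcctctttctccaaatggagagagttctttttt

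Cep55 and Spag5 had the largest decreases of the 28 genes. Cep55 is a centrosomal protein that moves to the midbody and completes cell division, and Spag5, matched here by its sperm antigen name, encodes astrin, a protein of the mitotic spindle and kinetochores. Cep55 was at 1.83, 1.14 and 1.74 FPKM with NF serum and at 1.63, 0.413 and 0.852 FPKM with DCM serum. The library pairs of B and C separated widely while that of A did not, with log2 ratios of -0.16, -1.46 and -1.03 in A, B and C. The mean ratio was -0.89 ± 0.66 (paired limma adjusted p = 0.0538). Spag5 was at 1.31, 1.21 and 2.38 FPKM with NF serum and at 1.19, 0.494 and 0.984 FPKM with DCM serum. Its DCM values lay below all NF values, narrowly so in A, and the log2 ratios were -0.14, -1.29 and -1.27 with a mean of -0.90 ± 0.66 (paired limma adjusted p = 0.0591).

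Proliferation markers also changed least in preparation A. Of 17 listed, 12 are in the table, and 11 fell and 1 was not called in the paired limma fit, where 61.6% of the table was called lower. Relative to the table medians 6 of the 12 were called lower, against 10.7% of the table. They had median log2 ratios of -0.24, -0.79 and -0.99 in A, B and C. Their summed FPKM was 58.8, 45.6 and 75.97 with NF serum and 49.6, 26.4 and 37.2 with DCM serum. Ccnb1, the mitotic cyclin, Aurkb, a mitotic kinase, and Cdk1, the kinase that drives mitosis, had log2 ratios of -0.75 ± 0.37, -0.70 ± 0.34 and -0.62 ± 0.32. The part of cycling cells in the values of Cep55, Spag5 and the other centrosome genes was not tested. Without Cep55 and Spag5 the remaining 26 genes had a median of -0.28, and 13 fell and 2 rose.

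Both promoters are shown because they hold the CHR, a short motif of genes expressed in late cell cycle phases, close to the start site. Its letters TTTGAA, on either strand, occur in 18.1% of all 27457 promoters and in 3 of the 25 here (12.0%), the third being Cep57 at 213 bases before the start site. The E2F letters TTTGGCGC or TTTCGCGC were found in none of the 25 and in 0.841% of all promoters. Other forms of the E2F motif were not searched, so the 25 are not shown to lack it. Cep55 is read from chr1:245245113-245245412 and Spag5 from chr10:63696586-63696885 (GRCr8, plus strand, RefSeq). Capitals mark the CHR on the opposite strand, beginning 47 bases before the start site in Cep55 and 7 bases before it in Spag5, where 2 CCAAT boxes (not in capitals) lie just upstream.
Cep55: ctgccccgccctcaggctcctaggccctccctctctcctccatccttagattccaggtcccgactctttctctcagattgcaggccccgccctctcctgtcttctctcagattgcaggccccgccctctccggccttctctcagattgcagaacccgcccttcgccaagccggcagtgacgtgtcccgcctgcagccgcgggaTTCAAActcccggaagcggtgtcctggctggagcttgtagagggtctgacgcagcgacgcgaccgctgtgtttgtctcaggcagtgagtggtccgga
Spag5: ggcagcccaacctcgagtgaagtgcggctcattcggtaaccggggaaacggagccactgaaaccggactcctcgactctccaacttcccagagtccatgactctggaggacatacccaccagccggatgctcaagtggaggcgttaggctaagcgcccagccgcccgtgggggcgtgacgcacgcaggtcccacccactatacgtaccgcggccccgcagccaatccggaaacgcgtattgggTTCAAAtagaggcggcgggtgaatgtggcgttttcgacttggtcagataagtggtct

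The CCAAT box, CCAAT on either strand, was in 14 of 25 (56.0%), against 37.7% of all promoters. The median GC content of the 25 windows was 62.3%, against 52.3% for all promoters. Cep41 and Ttll1 are among the 3 genes with no entry in the promoter table.

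**Figure D3:**
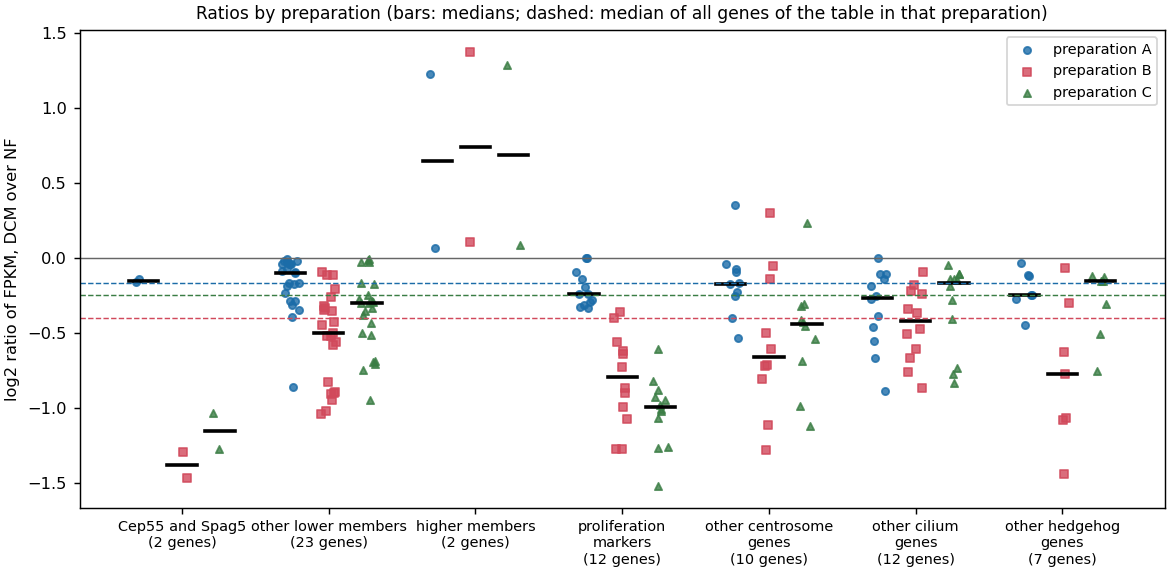
Log2 ratio of FPKM with DCM over NF serum (vertical axis) in each NRVM preparation for Cep55 and Spag5, the other 23 lower genes, 2 higher genes (Spata13 and Cep63), proliferation markers and 3 lists of related genes; points are genes, black bars medians and dashed lines the table medians of -0.17, -0.40 and -0.25. Proliferation markers lie at medians of -0.24, -0.79 and -0.99 in A, B and C, and Cep55 and Spag5 likewise lie near 0 in A (-0.16 and -0.14).

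Spata13 had the largest change of the 28 genes and was the clearest rise. It was found through its spermatogenesis name, but encodes a guanine nucleotide exchange factor of Rac1 and Cdc42 (also called Asef2) that acts on the actin cytoskeleton, and it has no established role in the centrosome. It was at 0.807, 2.02 and 1.51 FPKM with NF serum and at 1.89, 5.23 and 3.67 FPKM with DCM serum. The groups overlapped because preparation A was low with both sera, yet the ratios were nearly equal (1.23, 1.37 and 1.29). The mean rose from 1.44 ± 0.609 to 3.60 ± 1.67 FPKM (SD, n = 3 each), and the log2 ratio was 1.30 ± 0.07 (limma adjusted p = 0.0179 paired and 0.294 unpaired). Without it, the median of the other 27 genes was -0.29.

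**Figure D4:**
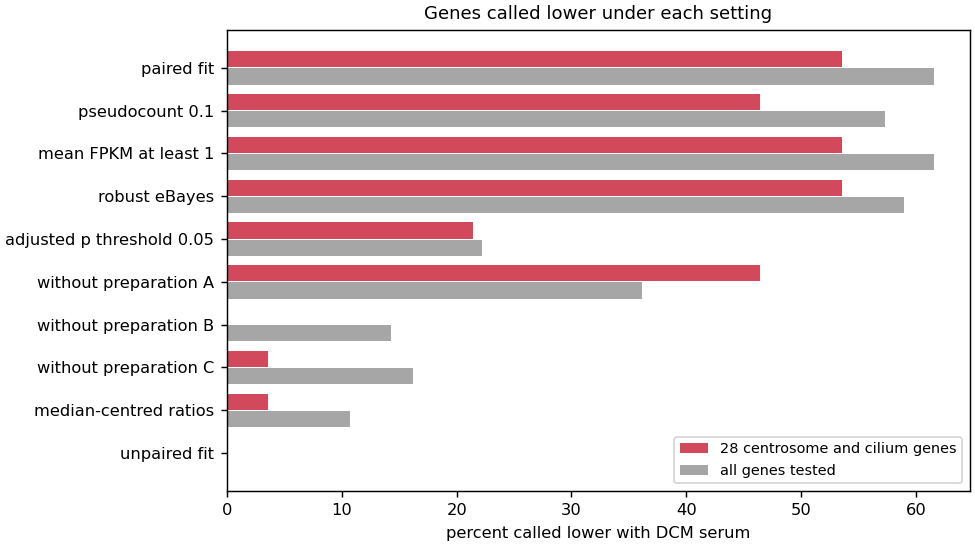
Percent of genes called lower with DCM serum (horizontal axis, bars from 0) under each setting of the limma fit, for the 28 centrosome and cilium genes (red) and for all genes tested (gray). The share of the 28 is 53.6% against 61.6% in the paired fit, above the table only without preparation A, and 0 without preparation B and in the unpaired fit.

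Related genes outside the name families stand beside the same background, a table in which 61.6% of genes were called lower and 10.7% were called lower relative to the table medians. Of 59 other centriole and centrosome genes listed, 10 are in the table, and 8 fell, 1 rose and 1 was not called in the paired limma fit, with a median log2 ratio of -0.45. Tacc3, a spindle and centrosome protein, went from 6.47 ± 1.54 to 3.55 ± 1.46 FPKM (SD, n = 3 each), and the log2 ratio was -0.93 ± 0.38 (paired limma adjusted p = 0.0278). Mzt1, which recruits gamma-tubulin complexes, and Fopnl, a centriolar satellite protein, had -0.51 ± 0.18 and -0.37 ± 0.18. Ndel1, a regulator of dynein at the centrosome, rose by a log2 ratio of 0.30 ± 0.06, with means of 25.9 ± 7.14 FPKM (NF) and 32.0 ± 10.1 FPKM (DCM). Relative to the table medians 2 of the 10 were called lower (Tacc3 and Mzt1) and Ndel1 higher.

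Of 97 other genes of cilium assembly and transport, 12 are in the table, of which 8 fell, against 61.6% of the table, and 4 were not called (median log2 ratio -0.33). Cdk20, a kinase that controls cilium length, was at 3.76, 3.50 and 3.73 FPKM with NF serum and at 2.57, 1.92 and 2.24 FPKM with DCM serum. The groups were wide apart and the ratios alike, with a mean of -0.72 ± 0.16 (paired limma adjusted p = 0.0262). Ick, a ciliary kinase that Cdk20 activates, had -0.34 ± 0.14, and Unc119, which carries lipid-bearing proteins into cilia, had -0.57 ± 0.25. Cdk20 and Unc119 were also called lower relative to the table medians.

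Of 31 other hedgehog pathway genes, 7 are in the table, of which 5 fell, against 61.6% of the table, and 2 were not called (median log2 ratio -0.45). Boc, a coreceptor for hedgehog ligands, was at 6.60, 11.8 and 11.2 FPKM with NF serum and at 5.56, 4.37 and 6.64 FPKM with DCM serum. As for Smo, the decrease was small in preparation A and large in B, with log2 ratios of -0.25, -1.44 and -0.75 in A, B and C (paired limma adjusted p = 0.0532), and Boc was the 1 gene of the 7 called lower relative to the table medians. Prkaca, the catalytic subunit of protein kinase A, which restrains the Gli factors, had -0.45 ± 0.32, and Btrc, which marks phosphorylated Gli proteins for processing, had -0.23 ± 0.07. The lists stand in the same selected table as the 28 genes, and no list was tested against the rest of it.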

How the data were processed

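mRNA of serum-treated NRVMs was sequenced by the authors (directional mRNA libraries, single reads), checked with FastQC, aligned to rat genome Rnor_5.0 with GSNAP and summarized as FPKM with Cufflinks. The deposited table holds these FPKM values for 6 libraries, after genes with a variance under 0.1 and genes with q of 0.10 or more were dropped (smallest variance in the file 0.100, 0 genes at or above that q). It also holds the authors' signed fold changes, their mean as a fold ratio, and p-values with q-values from the authors' test. These deposited comparisons were not used, except that the fold change columns name which NF library each DCM library was divided by, which matched the FPKM of all 3221 rows. The members and lists were chosen with earlier results of these data known.

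limma 3.58.1 (R 4.3.3) was fitted to log2(FPKM + 1), with preparation as a block because the study's methods normalize to the NF library of each preparation. The fit has 2 residual degrees of freedom. The deviations from the group mean were correlated over genes, which gave 0.873, 0.743 and 0.741 within preparations and -0.706 to 0.235 across them. The table was selected on ratios within preparations, which favours such correlations, so this is no independent check. p-values rest on the spread of the ratios between these preparations and on a variance that limma shares over all genes of the selected table. The shared part counts for 3.11 degrees of freedom, beside the 2 residual ones. Where the serum differs between preparations, its part in that spread cannot be told apart. Effects are the mean log2 FPKM ratio, without pseudocount, ± SD over 3 preparations, while adjusted p comes from the log2(FPKM + 1) scale, which understates changes of low genes. The fit was also run on simulated data with 200 changed genes, in both directions and without the authors' selection. Those data differ from this mostly lower, selected table, so the run checks the code and not the calls given here. In each role group the 3 genes with the smallest p in each direction, and the higher genes, are given in full except 1 gene of the 28 that enters the counts but is not reported here, and in other lists at most 3 per direction. Genes matched RefSeq by symbol or synonym (28 of 28, and 2961 of 3221 rows). Tables and plots were made with Python 3.11.15, pandas 2.3.3, numpy 2.4.6 and matplotlib 3.10.9. Alternatives were the unpaired fit, pseudocounts of 0.1 and 0.01, a mean FPKM of at least 1, median-centred ratios, a threshold of 0.05, robust eBayes and omission of each preparation. Log2 FPKM without pseudocount and omission of Spata13, or of Cep55 and Spag5, were chosen after seeing the data.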

Additional observations from a re-analysis of the deposited data

How the results depend on the processing

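The counts depended on the pairing and on preparations B and C. With no replicate block, limma called 0 of the 28 genes (0 higher, 0 lower; 3 at an unadjusted p under 0.05) and 4 of 3221 genes (3 higher, 1 lower). With each preparation left out in turn, it called 1 to 15 of the 28 (1 to 2 higher, 0 to 13 lower) and 592 to 1304 of all genes (97 to 140 higher, 461 to 1164 lower), and the median log2 ratio of the 28 lay between -0.39 and -0.23. With ratios centred on the preparation medians, 4 of the 28 were called (1 lower, 3 higher) and 596 of all genes (344 lower). The median of the 28 was -0.0168 for plain log2 FPKM ratios. The calls are on the log2(FPKM + 1) scale, where more of the 28 lay above 0 than below. Centring turned the sign of 12 genes, none of them called afterwards: Bbs2 0.12, Bbs7 0.0178, Cep120 0.0193, Cep131 0.0708, Cep68 0.12, Cep85l 0.0577, Ift172 0.11, Ift81 0.0182, Ptch1 0.0239, Rsph3 0.0512, Tctn1 0.20 and Ttc21b 0.0384 on the log2(FPKM + 1) scale. At a threshold of 0.05, 7 of the 28 (6 lower, 1 higher) and 864 of all genes (715 lower) were called. The causes of these shifts were not tested. Without Spata13, 1 gene was called higher. Pseudocounts of 0.1, 0.01 and none called 15 of the 28 each (Cep120 and Wdr34 were lost), and robust eBayes and the filter on FPKM left the count at 17. With 3 preparations, a selected table and no read counts, a gene that was not called is not shown to be unchanged.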
